A study of Mus musculus with 272 samples.

Results

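The proteasome genes described here are the rows of a mouse oocyte and embryo expression table whose symbols start with Psma, Psmb, Psmc, Psmd, Psme, Psmf or Psmg followed by a digit. The rule found 52 of 15854 gene symbols. By role, 17 encode the core particle, 17 encode the cap and 13 encode activators, an inhibitor or assembly chaperones. The other 5 carry a matching symbol but encode no subunit: Psmc3ip and Psme3ip1 are named for proteins they bind, and Psma5-ps, Psmb6-ps and Psmb6-ps2 are pseudogene symbols. Reads of Psme2 and its copy Psme2b, of Psma5 and Psma5-ps, and of Psmb6 and its pseudogene symbols may be shared, so the split between each pair is uncertain. The tissue-specific core genes Psma8 and Psmb8 were listed, but the rule matched no row with either symbol.

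The proteasome is the ATP-dependent protease that degrades ubiquitin-tagged proteins. Its core particle is a barrel: outer alpha rings (Psma) gate the entrance, and inner beta rings (Psmb) hold the peptidase sites, carried in most cells by Psmb5, Psmb6 and Psmb7. The cap that feeds the core has a ring of ATPases (Psmc), which unfold the substrate, and non-ATPase subunits (Psmd), among them a ubiquitin receptor and a deubiquitinase. Alternative activators (Psme) can take the place of the cap, Psmf1 binds and inhibits the core in vitro, Psmg chaperones assemble the core, and Psmd5, Psmd9 and Psmd10 assemble the ATPase base. In oocytes and early embryos the pathway is known for the degradation of cell-cycle regulators at meiotic divisions and of maternal proteins after fertilization.

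The study sequenced RNA from 8 stages: germinal vesicle (GV) oocytes, metaphase II (MII) oocytes, zygotes, 2-cell (2C), 4-cell (4C) and 8-cell (8C) embryos, morulae and blastocysts. At each stage, 4 pools of 20 oocytes or embryos gave transcriptome libraries. At each stage, 3 lysates of about 100 oocytes or embryos, all prepared in cycloheximide, which blocks elongation so that ribosomes stay bound, were separated on sucrose gradients into 10 fractions, each sequenced. The labels give the stage as the sole difference between groups and name no genotype, strain, age or hormone treatment. Nothing in them says that pools came from separate animals, so p-values measure the spread between pools or lysates, which may be technical. All libraries were made from polyadenylated RNA, so a shorter poly(A) tail and fewer molecules cannot be told apart. In these pooled samples a change in the number of cells of a type and a change in RNA per cell cannot be told apart either.

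Transcriptome libraries held 11.8 to 25.2 M (mega) reads and fraction libraries 0.0105 to 44 M, with 14 fraction libraries under 1 M. Stage markers followed the labels: a list of 7 oocyte genes summed to 19264 to 21956 CPM (reads scaled to a library total of 1 M) in GV pools and 7.45 to 12.7 in blastocyst pools, and 5 genes of the 2-cell embryo and 6 of the blastocyst peaked at those stages. Of 6 listed granulosa markers, 2 were in the table. Cyp19a1 stood at 33.8 to 68.6 CPM across the GV, MII and zygote pools. The other, Fshr, averaged 2.45 CPM in GV and 0.201 in MII pools. Of 5 listed blood markers, 2 were in the table. These, Cd74 and Hba-a1, summed to 0 in GV pools, 51 to 72.9 in 2-cell pools and 38.5 to 163 in 4-cell pools. The part of these markers in the results below was not tested. The gradients were less even than the pools. A fraction library of the 2-cell, 4-cell and 8-cell stages had a median of 4849, 4519 and 5888 genes at 1 CPM or more, against 7949 to 10321 at the other stages. Between gradients of 1 stage, the mean values of fractions 6 to 10 correlated across genes at r = 0.627 to 0.841 in those 3 stages and at 0.914 to 0.979 in the other 5 (3 pairs of gradients a stage, genes not being independent replicates).

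In the transcriptomes the summed levels of the core and of the cap genes followed one course: lower in the MII oocyte and zygote than in the GV oocyte, lowest in the 2-cell embryo and highest from the 4-cell stage on. Single genes differed in it. Of the 34 core and cap genes, 14 had their lowest stage mean in MII, 14 in the 2-cell embryo and 5 in the zygote. The remaining gene, Psmb9, was at 0 CPM in all GV, MII and zygote pools. Most of the core sum's drop from zygote to 2-cell lay in Psma2 and Psma7. Psma2 read 1394, 1204, 1203 and 1344 CPM in zygote and 204, 282, 279 and 231 in 2-cell pools. Psma7 read 836, 847, 896 and 767 in zygote and 98, 105, 74.5 and 71.9 in 2-cell pools. The 17 core genes summed to 5752 ± 372 CPM in GV pools, 3739 ± 103 in MII, 3503 ± 121 in zygotes and 1578 ± 70.7 in 2-cell pools (mean ± SD, n = 4). They then stood at 7691 ± 523 in 4-cell, 8882 ± 324 in 8-cell, 9391 ± 821 in morula and 7355 ± 348 in blastocyst pools. The 17 cap genes went from 3455 ± 56.9 in GV through 1497 ± 98.9 in MII, 1374 ± 105 in zygotes and 985 ± 145 in 2-cell pools to 5748 ± 287 in 4-cell and 6198 ± 460.0 in blastocyst pools. Every 4-cell pool lay above every 2-cell pool in both sums.

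The 13 regulators did not trace that course as a sum. Their total was 1671 ± 22 CPM in GV, 907 ± 70.01 in MII and 1541 ± 106 in 2-cell pools, and it was lowest in the 8-cell embryo, with 745 ± 60.5 in 4-cell, 653 ± 23.7 in 8-cell, 809 ± 45.1 in morula and 1048 ± 54.4 in blastocyst pools. Over the 47 subunit and regulator genes, the lowest stage mean fell in MII for 19, in the 2-cell embryo for 15 and in the zygote for 7. The highest stage mean was the blastocyst's for 17, the morula's for 11 and the GV oocyte's for 7.

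**Figure D1:**
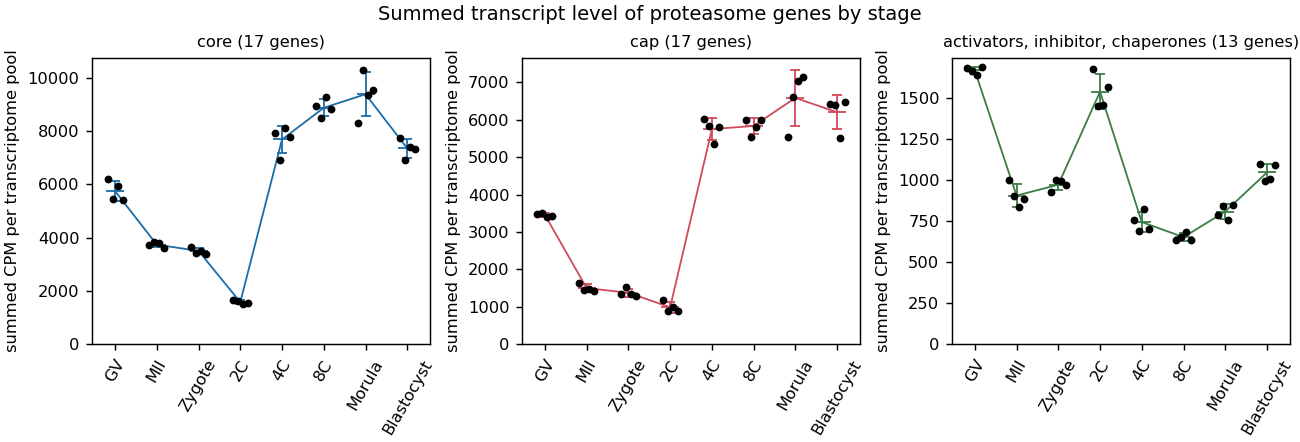
Summed CPM (y axis) of the 17 core, 17 cap and 13 regulator genes in each transcriptome pool (points) by stage (x axis), with the mean and SD of 4 pools as lines and bars. Core and cap sums dip to 1578 and 985 CPM in 2-cell pools and stand at 7691 and 5748 in 4-cell pools, while the regulator sum is higher in 2-cell than in 4-cell pools.

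From the GV to the MII oocyte, most of the machinery fell. Of the 52 members, 51 passed the filter on low values (all but Psmb6-ps), and limma called 29 lower and 2 higher at an adjusted p under 0.05 and a log2 change of at least 1. Over all genes tested, 25.3% were lower and 9.11% higher. The median change was -1.27 for the members and -0.11 for all genes on the log2(CPM + 1) scale, which all log2 changes here use. The ATPase ring fell whole, 6 of 6, as did 5 of 7 beta-ring, 3 of 7 alpha-ring and 5 of 11 non-ATPase cap genes. Psmb7, which carries the trypsin-like peptidase site, read 182, 150.1, 172 and 165 CPM in the 4 GV pools and 1.05, 1.39, 0.75 and 1.58 in the 4 MII pools. It fell by 6.27 (SE 0.17, adjusted p = 4.80e-26). The groups lay far apart, with every MII pool under 2 CPM. Psmb1, a beta subunit without a peptidase site, read 485, 402, 464 and 419 CPM in GV and 9.16, 6.8, 7.32 and 6.81 in MII pools, a fall by 5.7. Other groups fell with Psmc2, an ATPase (-4.3, SE 0.20), the alpha subunit Psma3 (-3.52, SE 0.13) and the lid subunit Psmd6 (-3.46, SE 0.12) as their largest falls. Not every ring member was called: the alpha subunit Psma2 changed by 0.67 and the beta subunit Psmb3 by 0.31, neither called.

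A pair of genes went the other way at the same transition. Psmd1, the scaffold subunit of the cap base, read 193, 223, 204 and 214 CPM in GV and 454, 447, 500.1 and 449 in MII pools and rose by 1.15 (SE 0.16, adjusted p = 8.36e-08). Psme4, the large single-chain activator linked to histone degradation, read 146, 108, 121 and 107 in GV and 360.5, 354, 242 and 346 in MII pools and rose by 1.42 (SE 0.15, adjusted p = 2.35e-10). For both genes every MII pool lay above every GV pool.

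Polyadenylation of stored transcripts in maturing oocytes is guided by short U-rich elements near the 3′ end, so the members' ends were searched for them. The letters TTTTAT or TTTTAAT were looked for on the transcript strand in the last 100 bases of each gene's GENCODE M21 transcript on GRCm38, a build that differs from the GRCm39 named by the submitters. Of 47 members matched, 6 held one (12.8%), against 2409 of 12924 genes (18.6%). The 6 windows follow, 30 bases each, transcript strand, with the element in capitals. In order, they lie at chr7:114264659-114264688, chr3:108279910-108279939, chr17:15475028-15475057, chr11:97713466-97713495, chr16:95979966-95979995 and chr5:139823620-139823649, each within the last 100 bases of its transcript.
Psma1: ctataccaatgtTTTTATatgaagaaaata
Psma5: gtgtgtgtgtttTTTTATgaagtctgtaca
Psmb1: tttttgcttttTTTTAATaaacttctgttc
Psmb3: tttgtttttctTTTTAATaaaattgccttt
Psmg1: tgatgttttgtaTTTTATtctggcttggga
Psmg3: gtgggaagatttTTTTATtaaaaataaatc
Psmb1 and Psmg3 fell from GV to MII, and the other 4 were not called. Over all genes, the median change from GV to MII was 0.28 for those with the element and -0.18 for those without. For the members it was -0.72 for the 6 with it and -1.61 for the 41 without. A match is a description of the letters and not a shown binding site.

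The step from MII oocyte to zygote moved few members. Limma called 7 higher and 2 lower, beside 5.79% and 4.48% of all genes, and the median change was 0.18 for members and 0.00 for all genes. Genes that had fallen most in MII were among those that rose: Psmf1 by 1.93 (SE 0.17), Psmb7 by 1.75 (SE 0.17), Psmc2 by 1.55 (SE 0.20), the alpha subunit Psma6 by 1.44 and Psmd6 by 1.26. The MII libraries enter both steps, so the rises and the falls share them. Psmd3, a lid subunit of the cap, read 82.5, 47.4, 50.002 and 48.7 CPM in MII and 16.1, 21.7, 18.1 and 18.4 in zygote pools and fell by 1.54 (SE 0.21, adjusted p = 3.55e-07). Psmb3 fell by 1.04 and the ATPase chaperone Psmd10 rose by 1.03. Both were under a change of 1 without replicate A (-0.97 and 0.94) or without replicate C (-0.90 and 0.95).

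From zygote to 2-cell embryo the 15 higher and 6 lower members stood beside 25.2% and 8.71% of all genes. The median change was 0.18 for members and 0.37 for all genes. This split depends on the scaling: quantile normalization, which moved the median of all genes to -0.08, gave 9 higher and 11 lower members, and edgeR on reads recovered from the CPM gave 12 and 12. Psmc3ip, which encodes no subunit, rose by 2.87. Among genes of subunits and regulators, the largest rises were those of the core chaperone Psmg2 (2.88, SE 0.22), the inducible beta subunit Psmb10 (2.81, SE 0.22), the activator Psme1 (2.79, SE 0.23) and the inhibitor Psmf1 (2.32, SE 0.17). Psmb1 rose by 1.82 in the beta ring. Psma7, an alpha subunit, read 836, 847, 896 and 767 CPM in zygotes and 98, 105, 74.5 and 71.9 in 2-cell pools, with no overlap. It fell by 3.26 (SE 0.12, adjusted p = 8.04e-23). The lowest uncalled changes in the beta and ATPase rings were -0.35 (Psmb2) and -0.95 (Psmc5). Psmd1 fell by 1.55 and the core chaperone Psmg3 by 1.13. The smaller rises of Psmc3 (1.13), Psma3 (1.09) and Psmd13 (1.16) were not called after quantile normalization, and those of Psmc3 and Psma3 were not called by edgeR.

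Between the 2-cell and the 4-cell embryo nearly the whole core and cap rose. Limma called 36 members higher and 6 lower, beside 31.8% and 32.9% of all genes, with a median change of 1.88 for members and 0.02 for all genes. All 7 alpha-ring and all 6 ATPase genes rose, with 6 of 7 beta-ring and 10 of 11 non-ATPase cap genes. The exceptions were Psmb2 (0.94) and the ubiquitin receptor Psmd4 (0.94), which changed by less than 1. Psmd7, a structural partner of the cap deubiquitinase, read 38.9, 33.4, 40.7 and 32.3 CPM in 2-cell and 1182, 1271, 1024 and 1182 in 4-cell pools. It rose by 4.97 (SE 0.10, adjusted p = 4.43e-30), 31.3-fold on this scale, with no overlap. Psmb5, which carries the chymotrypsin-like site, read 6.87, 3.07, 4.99 and 4.86 in 2-cell and 162, 161, 194 and 179.7 in 4-cell pools and rose by 4.91 (SE 0.18). The alpha subunit Psma6 rose by 4.37, the ATPase Psmc4 by 3.27 and the core chaperone Psmg3 by 4.76 (SE 0.19). The smallest rises in their rings were those of Psma2 (1.22) and Psmc6 (1.59).

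The genes that fell at this step were regulators and 1 inducible subunit. The ATPase chaperone Psmd9 read 287, 183, 190.1 and 143 CPM in 2-cell and 57.1, 31.8, 40.9 and 43.2 in 4-cell pools and fell by 2.17 (SE 0.17, adjusted p = 6.38e-14). Psmf1 fell by 2.12, Psmd10 by 1.73, Psme4 by 1.52 and Psme3, the nuclear activator, by 1.28. Psmb9, an inducible beta subunit at a few CPM, fell by 1.18 and was not called after quantile normalization (-0.72) or without 2-cell replicate F (-0.98). In all 6 the groups did not overlap.

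**Figure D2:**
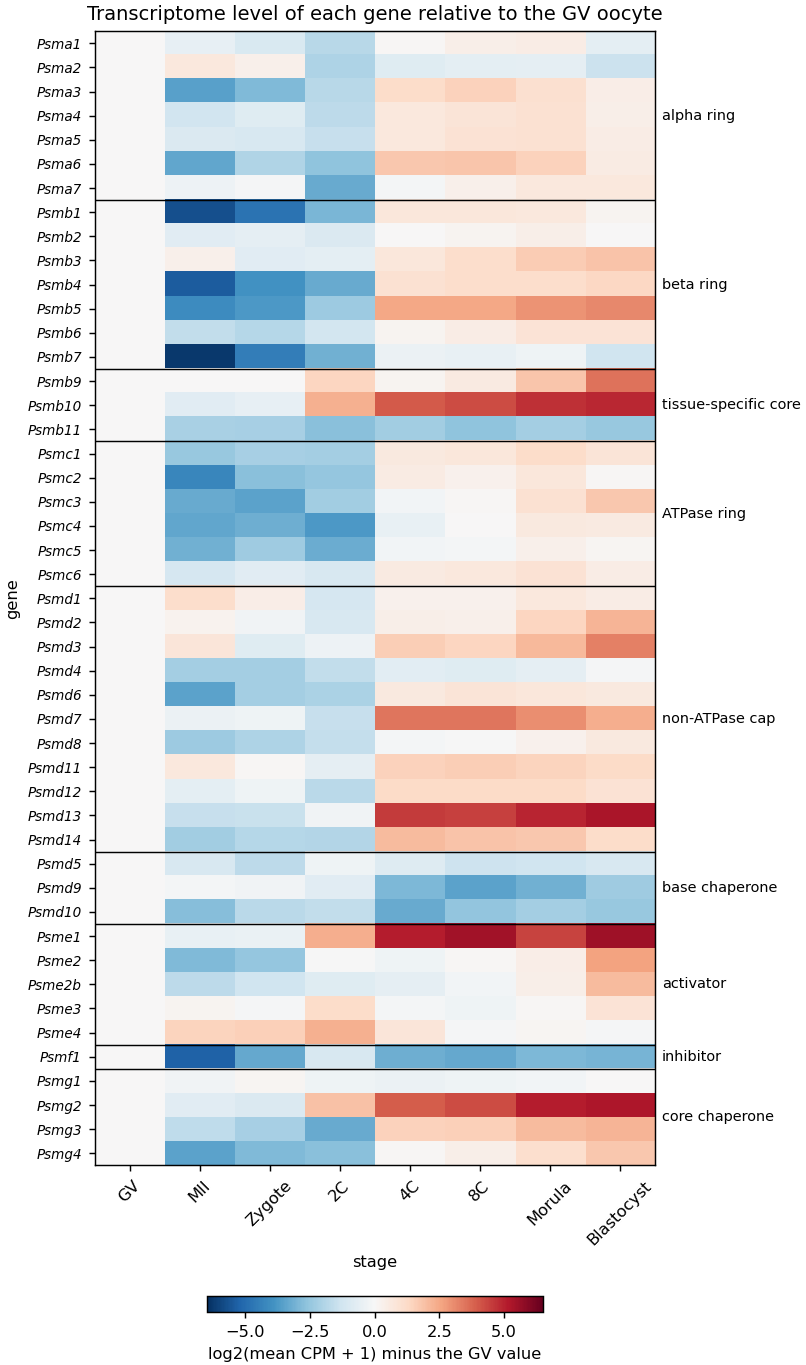
Heat map of the 47 subunit and regulator genes (rows, by group) over 8 stages (columns). Colour gives log2(mean CPM + 1) of the 4 transcriptome pools of a stage minus the gene's GV value. Most core and cap rows are lowest in an MII, zygote or 2-cell column and highest in a later one. Exceptions include Psma2 and Psmd1, which are highest in MII. Psmf1, Psmd9 and Psmd10 lie under their GV value in the later columns, and Psme4 lies near its GV value from the 8-cell column on.

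Proteasome genes are known targets of the transcription factors Nfe2l1 and Nfe2l2, which bind antioxidant-response-type elements, so promoters were searched for the core letters TGACNNNGC on both strands. The windows searched ran from 250 bases before to 50 after each RefSeq start on GRCm38.p6. Of 40 members matched, 6 held a match (15%), against 1708 of 11663 promoters of the same length (14.6%). The 6 windows follow, 30 bases each on the gene's strand, with the match in capitals (in Psmc6, Psmd12 and Psme4 it reads on the opposite strand). In order, they lie at chr14:54618023-54618052 (minus strand), chr11:70525338-70525367, chr14:45329587-45329616, chr11:107479278-107479307, chr5:123228149-123228178 and chr11:30771758-30771787 (each on the plus strand).
Psmb5: cgtgaagttgTGACGTCGCggcgttgccag
Psmb6: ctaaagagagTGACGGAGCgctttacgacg
Psmc6: ccagccagtaGCTAAGTCAggcattgctca
Psmd12: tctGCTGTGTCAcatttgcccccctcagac
Psmd9: atctagccggTGACCCCGCccacttccaag
Psme4: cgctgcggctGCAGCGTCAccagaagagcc
From 2-cell to 4-cell embryos the first 4 of these genes rose, by 4.91, 1.39, 1.59 and 2.99, and the last 2, Psmd9 and Psme4, fell. The letters CCAAT were in 14 of the 40 promoters (35%; 39.4% of all) and GGGCGG in 23 (57.5%; 59.9% of all), both strands searched. Shares of the members lay near those of all promoters for all 3 motifs.

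After the 4-cell stage few members were called in the transcriptomes. From 4-cell to 8-cell, limma called 0 members (12 of 51 had an unadjusted p under 0.05), and edgeR 0, beside 0.451% of all genes higher and 2.14% lower. Without replicate D, 1 member was lower. Over the rings and the cap the changes ran from -0.22 (Psmc2) to 0.53 (Psmc4). From 8-cell to morula 2 were higher and 1 lower (8.18% and 3.7% of all genes): the cap scaffold subunit Psmd2 rose by 1.04, Psmb9 rose by 1.34 and Psme1 fell by 1.03. Each of the 3 lost its call under some alternative: Psmd2 and Psmb9 with edgeR, Psme1 without replicate A (-0.84). From morula to blastocyst 5 were higher and 1 lower (18.8% and 7.97% of all genes). Without replicate A the split was 4 higher and 6 lower, and edgeR gave 2 higher and 6 lower. Psme2, a subunit of the interferon-inducible activator, read 17.5, 17.8, 14.6 and 17.2 CPM in morula and 79.6, 69.5, 87.4 and 76 in blastocyst pools and rose by 2.15 (SE 0.23, adjusted p = 1.73e-09). Psmb9 rose by 1.75 (SE 0.27) but was not called by edgeR (adjusted p = 0.138). Psmd3 rose by 1.23, and the alpha subunit Psma1 fell by 1.09 but by 0.93 without replicate B.

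Set end to end, the blastocyst differed from the GV oocyte in 28 members, 19 higher and 9 lower, beside 38.2% and 30.9% of all genes. The median was 0.60 for members and 0.32 for all genes. Psme1, at or near 0 in GV, so that its value depends on the pseudocount, rose by 5.5 (SE 0.23) and by 7.23 with a pseudocount of 0.1. Other large rises were those of the lid subunit Psmd13 by 5.3 (SE 0.21), Psmg2 by 5.27 and Psmb10 by 4.93. Psmd13 read 1.97, 3.13, 2.88 and 2.77 CPM in GV and 183, 150.2, 131 and 115 in blastocyst pools. In the rings the largest rises were those of Psmb5 (3.15) and the ATPase Psmc3 (1.77), and the falls those of Psma2 (-1.4) and Psmb7 (-1.29). Psmf1 fell by 3.05, Psmb11 by 2.48 and Psmd10 by 2.45.

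The regulators each had a course of their own. Psmf1, the inhibitor, read 644, 649, 637 and 668 CPM in GV pools, 17.1, 20.4, 13.5 and 12.4 in MII, 341, 329, 256 and 336 in 2-cell and 81.4, 56, 72.1 and 79 in 4-cell pools. It fell by 5.3 into MII (SE 0.17, adjusted p = 2.49e-24), and its zygote mean was 63.4 ± 15.4. From the 8-cell stage it stood at 64.4 ± 13.4, 85.5 ± 5.77 and 78 ± 11 in 8-cell, morula and blastocyst pools. The GV pools were the highest and the MII pools the lowest, and neither overlapped another stage.

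Psme4 was highest in the 2-cell embryo. Its pools read 333, 291, 389 and 387 CPM in zygotes, 526, 571, 619 and 687 in 2-cell and 232, 176, 256 and 179 in 4-cell embryos, and the means were 112 ± 12.9, 132 ± 10.8 and 114 ± 16.5 from the 8-cell stage on. Zygote and MII pools overlapped, as did 8-cell, morula, blastocyst and GV pools. Psme3 also had its highest mean in the 2-cell embryo, 136 ± 33.8 CPM, against 56.6 ± 5.22 in zygotes, 54.3 ± 5.81 in 4-cell and 113 ± 10.8 in blastocyst pools. It stood at 59.5 ± 5.11 in GV, 68.5 ± 7.71 in MII, 48 ± 9.42 in 8-cell and 63.2 ± 14.1 in morula pools.

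The paired activator subunits Psme1 and Psme2 shared part of their course. Both were low in MII and zygote pools, higher in 2-cell pools, and higher in blastocyst than in morula pools. They differed in GV pools and between the 4-cell stage and the morula. Psme1 stood at 0.453 ± 0.351 CPM in GV pools, held at most 2 reads in any MII pool and 4 in any zygote pool, and then stood at 6.54 ± 1.39 in 2-cell, 49.1 ± 14.7 in 4-cell, 63.2 ± 15.1 in 8-cell, 30.03 ± 5.58 in morula and 64.6 ± 14.7 in blastocyst pools. Psme2 went from 12.1 ± 1.59 in GV to 0.776 ± 0.407 in MII and 1.3 ± 0.802 in zygotes, stayed between 9.85 and 16.8 from the 2-cell stage to the morula, and reached 78.1 ± 7.45 in the blastocyst. The inducible beta subunits, which replace the constitutive peptidases in immune tissue, were low: Psmb9 was at 0 CPM in all GV, MII and zygote pools and read 13, 8.18, 11.8 and 8.48 in blastocyst pools. Between them it stood at 1.67 ± 0.974 in 2-cell, 0.133 ± 0.223 in 4-cell, 0.491 ± 0.981 in 8-cell and 2.43 ± 0.983 in morula pools. Psmb10 stood at 0.806 ± 0.383 in GV, 7.87 ± 1.82 in 2-cell, 27.7 ± 8.98 in 4-cell, 32.5 ± 4.61 in 8-cell, 47.4 ± 10.2 in morula and 53.6 ± 7.81 in blastocyst pools (0.0952 in MII and 0.262 in zygotes). Psmb11, the thymus subunit, was highest in GV pools at 7.3 ± 1.73 CPM and had a mean under 1 at every later stage.

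Of the chaperones that pair alpha subunits, Psmg1 varied least, with stage means from 73.7 to 107 CPM and no call between consecutive stages. Its partner Psmg2 stood at 1.7 ± 0.618 in GV, 0.618 ± 0.209 in MII, 0.408 ± 0.236 in zygotes, 9.29 ± 1.26 in 2-cell, 40.5 ± 10.2 in 4-cell, 50.9 ± 14.6 in 8-cell, 93.6 ± 18.4 in morula and 102 ± 13.7 in blastocyst pools. Psmg3 read 1.15, 0.766, 1.02 and 1.33 in 2-cell and 64.5, 65.3, 42.3 and 50.3 in 4-cell pools, from 19.2 ± 3.13 in GV, 5.43 ± 1.62 in MII and 3.52 ± 0.457 in zygotes, and reached 92.1 ± 14.6 in the blastocyst. Psmg4, its partner, went from 37.4 ± 4.19 in GV to 2.42 ± 0.566 in MII and from 4.75 ± 1.1 in 2-cell to 39.5 ± 12.3 in 4-cell and 127 ± 32.1 in blastocyst pools. It fell by 3.5 into MII. Unlike Psmg2, Psmg3 and Psmg4, the ATPase chaperones had lower means in 4-cell than in 2-cell pools, though Psmd5 was not called. Psmd9 stood between 201 and 338 CPM up to the 2-cell stage and between 29.1 and 66.2 afterwards. Psmd10 stood at 200.1 ± 3.97 in GV, fell by 2.8 into MII, and was at 58.8 ± 9.41 in zygotes, 66.4 ± 6.61 in 2-cell and 19.6 ± 4.68 in 4-cell pools. Psmd5 stood at 133 ± 14.5 in GV, 63.6 ± 7.39 in MII, 40.5 ± 6.94 in zygotes and 108 ± 19.1 in 2-cell pools and between 52.6 and 75.1 later.

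**Figure D3:**
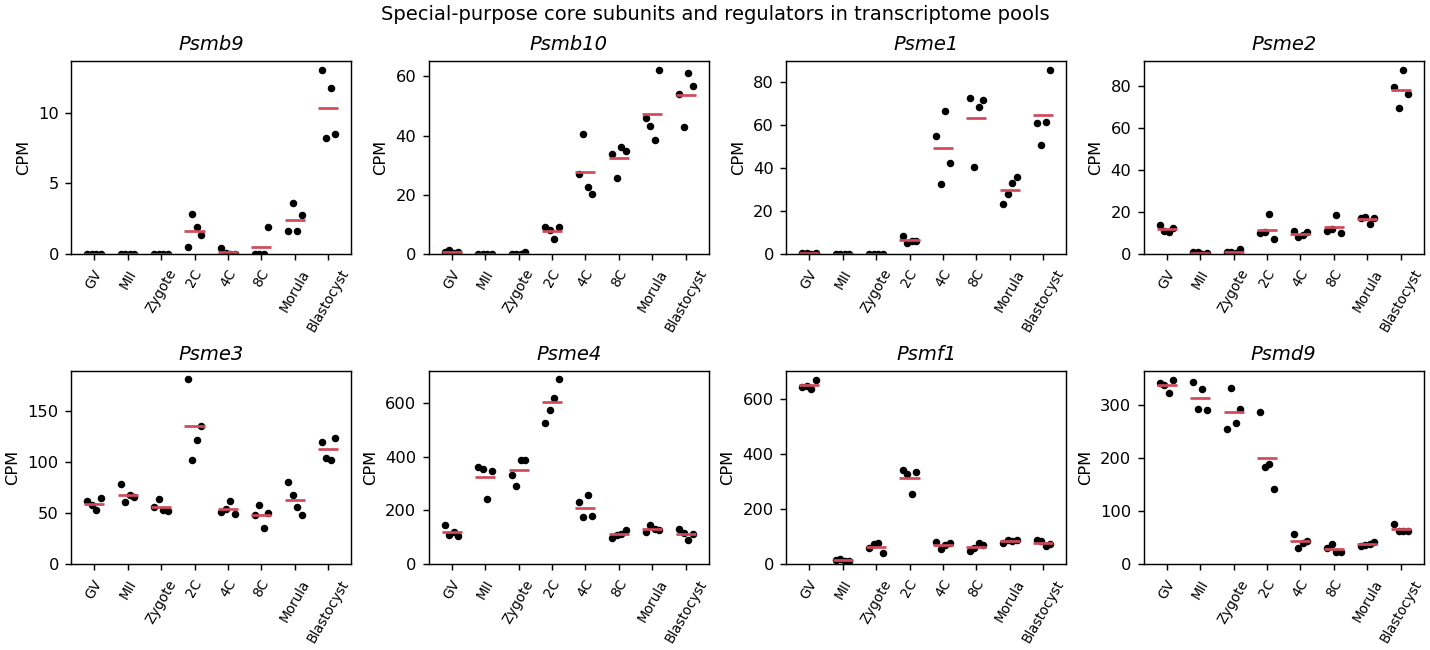
CPM (linear y axis) in each transcriptome pool (points) by stage (x axis), with a bar at each stage mean. Separate panels show Psmb9, Psmb10, Psme1, Psme2, Psme3, Psme4, Psmf1 and Psmd9. Psmf1 drops in MII, Psme4 peaks in 2-cell pools, and Psmb9, Psmb10 and Psme1 are near 0 before the 2-cell stage.

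The gradients show where along the sucrose column the transcripts lay. The labels number the fractions 1 to 10 without saying which end is which. By convention 1 is the light top and 10 the heavy bottom with the polysomes, and the values are read that way here. Each fraction library was scaled to its own total, so a share over fractions is a share of summed CPM and not of molecules, and all genes together sit near 50.1% to 52.2% on the heavy side (fractions 6 to 10) by construction. For the core genes the heavy share was 44.9%, 45.6% and 45.3% in GV gradients A, B and C, 52%, 45.7% and 44.7% in MII and 42%, 48.7% and 40.4% in zygotes. It was 59.9%, 53.4% and 59.4% in 2-cell, 72.3%, 68.5% and 70.02% in 4-cell and 71.1%, 68.8% and 62.2% in 8-cell gradients, and 75.2%, 71.4% and 72% in morula and 69%, 68.1% and 70.9% in blastocyst gradients. All 3 gradients of each stage from the 2-cell embryo on lay above all GV, MII and zygote gradients. These are shares of a sum, in which abundant genes weigh most. In 2-cell gradients all heavy values exceeded all light values for 3 of 52 members, beside 8.31% of all genes.

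The cap genes were lighter than the core genes at 5 of 8 stages. Their heavy share was 41.1%, 44.3% and 41% in GV, 42.2%, 37.6% and 37.1% in MII, 46.3%, 45.1% and 45.3% in zygote and 37.5%, 31.9% and 49% in 2-cell gradients. It was 42.8%, 63.1% and 54.7% in 4-cell, 61.6%, 60.6% and 59.2% in 8-cell, 74.3%, 70.01% and 70.5% in morula and 70.2%, 69.4% and 68.7% in blastocyst gradients. In GV, MII, 2-cell, 4-cell and 8-cell gradients the 3 core values lay above the 3 cap values, and in zygote, morula and blastocyst gradients they overlapped. For the regulators the means were 42.8% ± 0.757 in GV, 48.3% ± 3.53 in MII, 42.9% ± 3.96 in zygote, 44.9% ± 4.66 in 2-cell, 62.3% ± 6.01 in 4-cell, 67.5% ± 1.28 in 8-cell, 61% ± 4.1 in morula and 58.3% ± 2.21 in blastocyst gradients (SD, n = 3). In the blastocyst all 3 regulator values lay under all 3 core and cap values.

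**Figure D4:**
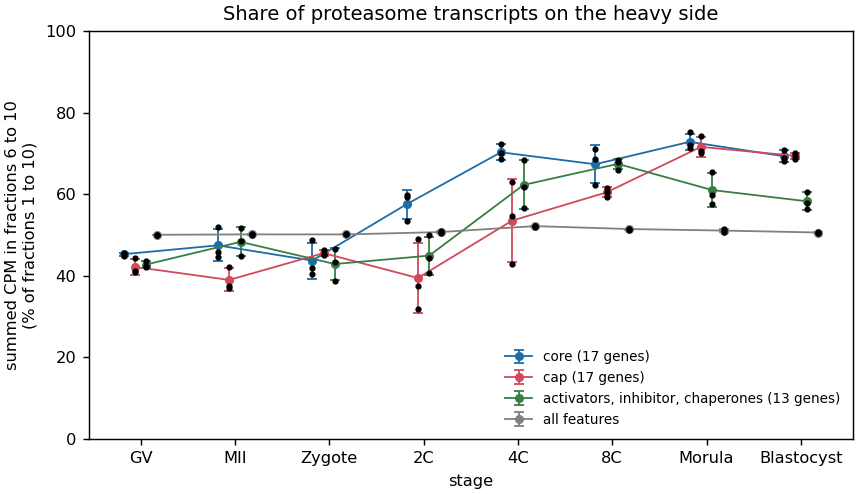
Share of summed CPM in fractions 6 to 10 (y axis, percent) of core, cap and regulator genes in each of 3 gradients (points) by stage (x axis), with stage means as lines. Core shares are 45.3%, 47.5% and 43.7% on average in GV, MII and zygote gradients and 67.4% to 72.9% from the 4-cell stage on.

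By single fraction, the shape of the profile differed between early and late stages. In GV gradients the largest share of the core genes lay in fraction 2 (17.6% ± 1.19), and fractions 8, 9 and 10 held 8.61% ± 1.16, 9.88% ± 0.981 and 8.5% ± 0.764 (SD, n = 3). In morula gradients fraction 2 held 5.05% ± 0.0578, fraction 9 held the largest share (21.2% ± 0.725), and fractions 8 and 10 held 17% ± 0.556 and 15.7% ± 2.52. The cap genes in morula gradients were weighted one step further, with 19.2% ± 2.23 in fraction 9 and 25.2% ± 3.4 in fraction 10. The regulators of the morula were flat from fraction 4 to 10, with 10.7% ± 1.4 in fraction 4 and 12.3% ± 3.02 in fraction 10. In the blastocyst fraction 9 held the largest share of both core (20.6% ± 5.66) and cap genes (22.5% ± 0.449). The mean fraction number of the core genes, weighted by CPM, was 5.13 ± 0.0302 in GV, 5.81 ± 0.199 in 2-cell, 6.93 ± 0.134 in morula and 6.74 ± 0.119 in blastocyst gradients.

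**Figure D5:**
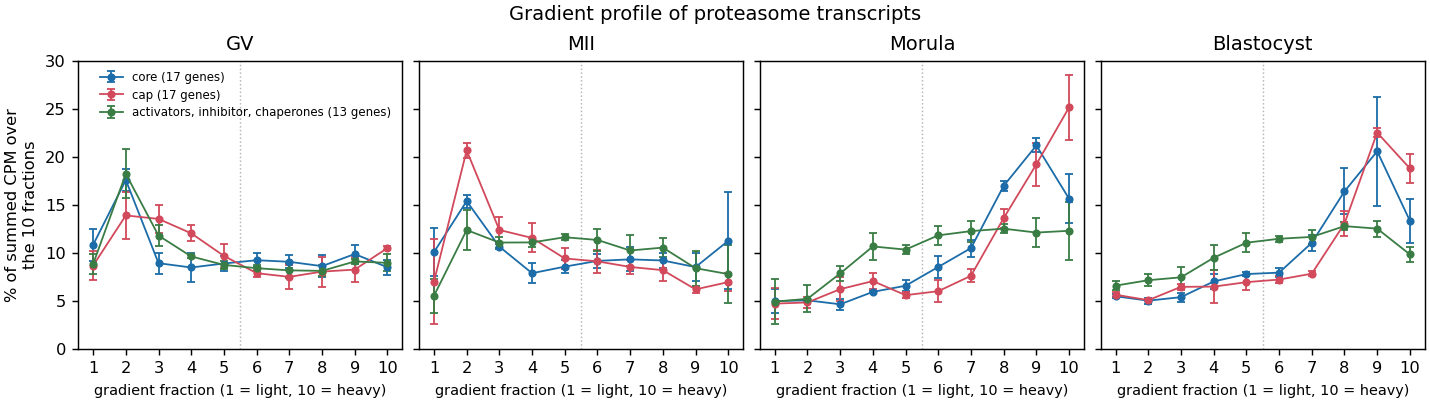
Share of summed CPM (y axis, percent) in fractions 1 to 10 (x axis) of core, cap and regulator genes, as the mean and SD of 3 gradients. The stages drawn are GV, MII, morula and blastocyst. The core peak sits in fraction 2 in GV oocytes (17.6%) and in fraction 9 in morulae (21.2%), and the morula cap peak in fraction 10 (25.2%).

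Gene by gene, the 3 heavy means all exceeded the 3 light means for 4 of 52 members in GV oocytes, beside 14.5% of all genes. This held for 7 in MII (15.9%), 9 in zygotes (16.4%) and 3 in 2-cell gradients (8.31%), near or under the share of all genes. It held for 9 in 4-cell (4.31%), 23 in 8-cell (9.2%), 41 in morula (17.3%) and 33 in blastocyst gradients (16.9%). The 3 light means all exceeded the 3 heavy means for 10 members in GV (7.89% of all genes), 13 in MII (18.3%), 7 in zygote (16.7%) and 4 in 2-cell gradients (14.6%). From the 4-cell stage on this held for 1 in 4-cell (12.8%), 0 in 8-cell (11.4%), 1 in morula (12.9%) and 4 in blastocyst gradients (20.1%).

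A limma fit over all gradients, with 1 estimate of the spread for all stages, called few of these differences. It called 0 members in GV (0.0725% of all genes; 5 members with an unadjusted p under 0.05, edgeR 0), 2 in MII (3.23%) and 3 in zygotes (3.01%). It called 8 in 2-cell (3 heavier, 5 lighter, 18.2% of all genes), 9 in 4-cell (7 heavier, 16.3%) and 9 in 8-cell gradients (9 heavier, 9.05%). It called 6 in morulae (6 heavier, 5.81%) and 5 in blastocysts (5 heavier, 2.74%). The median heavy minus light difference of the members was 1.03 in 8-cell, 1.24 in morula and 1.01 in blastocyst gradients, against 0.00, 0.00 and -0.02 for all genes. With the gradient as a block, since both sides come from 1 lysate, 9 members were called in morulae and 8 in blastocysts. The share of all genes called by that fit is not given here, so these 2 counts show no trait of the members. Without gradient A, B or C the count was 3, 0 and 4 in 8-cell, 4, 2 and 2 in morula, and 1, 0 and 1 in blastocyst gradients.

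The beta-ring genes lay close together: the 7 differed by 1.03 (Psmb6) to 1.64 (Psmb4) in 8-cell, 1.18 (Psmb7) to 1.73 (Psmb2) in morula and 1.05 (Psmb6) to 1.46 (Psmb4) in blastocyst gradients. In GV gradients the same 7 ran from -0.66 (Psmb6) to 0.80 (Psmb5).

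That shared spread mixes the uneven 2-cell to 8-cell gradients with the even ones. With the spread of each stage alone, 0 members were called in 2-cell, 4-cell and 8-cell gradients, 22 in morulae, all heavier, and 26 in blastocysts, 25 heavier and 1 lighter. Of all genes, 2.99% were heavier in morulae and 4.98% in blastocysts by that fit. All 7 beta-ring genes were heavier at both stages, with 5 of 6 ATPase genes in the morula and 3 of 6 in the blastocyst. Of the 13 regulators 0 were called in the morula and 5 in the blastocyst, among them the activator subunits Psme1 (1.07) and Psme2 (1.22) and the chaperones Psmg1 (1.23) and Psmd10 (1.52). Psmb10 was the lighter one (-1.49, SE 0.10, limma adjusted p = 0.00528).

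Single members show the sizes. Psmb5 read 869, 941 and 809 CPM on the heavy side of blastocyst gradients A, B and C and 298, 352 and 319.6 on the light side. Its difference was 1.43 (SE 0.41, adjusted p = 0.0482 with the shared spread), and heavy and light values did not overlap. In GV gradients it read 100.4, 69.2 and 110.4 heavy and 40.7, 68.1 and 51.4 light. In 2-cell gradients it read 9.66, 6.78 and 23.2 heavy and 1.71, 0.597 and 2.26 light. Psmb10, the inducible subunit, read 43.6, 38.7 and 44.1 heavy and 117, 132 and 113 light in the blastocyst, the reverse of Psmb5, and 199, 106 and 105 heavy and 36.7, 116 and 32.1 light in the 4-cell embryo, where the sides overlapped. In the morula the largest heavier call was the lid subunit Psmd12, with 214, 163 and 183 heavy and 24.1, 23 and 34.9 light (2.74, SE 0.65, adjusted p = 0.00483). Psmb2 followed in the beta ring (1.73). In the 8-cell stage Psmb4 (1.64), Psmc1 (2.43), Psmd6 (2.65), Psmg3 (1.92) and Psmd10 (2.41) led their groups among genes called with the shared spread. Psmd10 stood at 1.41 in that stage without gradient B, uncalled, and Psmc1 was not called with the gradient as a block (adjusted p = 0.0525). Psmb5 lost its blastocyst call when any 1 of the 3 gradients was left out, and Psmd12 its morula call without B (adjusted p = 0.109) or C (0.0550).

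Psmd8, a lid subunit of the cap, sat on the light side in the oocyte and on the heavy side in the blastocyst. It read 409, 440.3 and 372 CPM heavy and 881, 842 and 698 light in GV gradients, with no overlap. In MII it read 419, 224 and 194 heavy and 979, 853 and 1044 light (-1.85, SE 0.37, adjusted p = 0.00139), and it was also called lighter in zygotes (-1.52), 2-cell (-1.61) and 4-cell gradients (-1.19). The difference was -0.22 in 4-cell gradients without A (adjusted p = 0.854), and the MII and zygote calls were lost without B or C and the 2-cell call without B. In blastocyst gradients it read 1479, 1778 and 1235 heavy and 537, 754 and 663 light, again with no overlap. The change in its heavy minus light difference from GV to blastocyst was 2.18 (SE 0.52, adjusted p = 0.0234), and with the gradient as a block, since both sides come from 1 lysate, it was not called (adjusted p = 0.0561).

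In MII and zygote gradients other genes lay on the heavy side. Psma2 was heavier in MII, with 333, 397 and 362 heavy and 120.0, 126 and 127 light (1.54, adjusted p = 0.0385). Psme4 read 39, 22.5 and 60.02 heavy and 1.86, 1.72 and 5.09 light in zygotes (3.41, SE 0.98, adjusted p = 0.0452), and Psmd3 35, 105 and 99.3 and 19.2, 10.2 and 11 (2.38). Psmd3 had been on the light side in GV gradients, at 47.5, 54 and 54.4 heavy and 121, 129 and 124 light. Without gradient B or C, 0 members were called at either stage, and with the gradient as a block Psme4 was not called in zygotes (adjusted p = 0.0584).

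The 2-cell and 4-cell gradients held the largest differences and the least even values. Psmc4, an ATPase, read 0.318, 0 and 19.7 CPM heavy and 26, 25.6 and 21.3 light in 2-cell gradients, and 159, 117 and 121 heavy and 3.99, 0.589 and 9.64 light in 4-cell gradients. Psmf1 read 358, 267 and 296 heavy and 993, 1106 and 797 light in 2-cell, and 108, 48.4 and 160.5 and 2.33, 0.491 and 25.9 in 4-cell gradients. Psmc2 ran the other way, with 1.87, 0.608 and 7.96 heavy and 20.3, 37.8 and 56.9 light in 4-cell gradients. Several of these values differ widely between the 3 gradients or are near 0. With the shared spread 6 members changed position from 2-cell to 4-cell (11.7% of all genes): Psmc4 by 7.98, Psmf1 by 5.87, Psma1 by 3.22, Psmb3 by 1.47, Psmc2 by -4.19 and Psme3ip1 by -3.1. With the spread of those stages alone 0 were called, and with the gradient as a block Psme3ip1 was not (adjusted p = 0.0579). Without gradient A, Psmc2 (-2.99) and Psme3ip1 (-1.89) were not called. Within the 2-cell stage Psmb5 (2.38) and the ATPase chaperone Psmd5 (2.62) were also called heavier and Psmd10 (-2.32) lighter, and within the 4-cell stage Psmb4 heavier (2.48). Without 2-cell gradient C, Psmd5 stood at 1.41 and Psmd10 at -1.29, both uncalled.

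Few members were called for a change of position at the other steps. With the shared spread the count was 0 from GV to MII (0.185% of all genes; 2 members with an unadjusted p under 0.05, edgeR 0) and 0 from MII to zygote (0.0198%; 2 members with an unadjusted p under 0.05, edgeR 0). It was 2 from zygote to 2-cell (4.65%), Psmb5 by 2.31 and Psmb6 by 1.57, and 2 from 4-cell to 8-cell (2.47%), Psmc4 by -3.78 and Psmf1 by -3.32. Psmb5 lost its call without gradient A, B or C, and Psmc4 and Psmf1 lost theirs without A or B. With log2 values averaged over a side, Psmb5 was 0.93, Psmc4 -1.66 and Psmf1 -0.91, each uncalled. The count was 0 from 8-cell to morula (0.534%; 2 members with an unadjusted p under 0.05, edgeR 0) and 0 from morula to blastocyst (0.0198%; 0 members with an unadjusted p under 0.05, edgeR 0). From GV to blastocyst it was 3 (1.05%): Psmd8, Psmd4 by 2.16 and Psmb6, a peptidase subunit, by 1.71. Without any 1 of gradients A, B and C, 0 of these were called. With the spread of GV and blastocyst alone 20 members were called, 19 toward the heavy side, beside 14.2% of all genes in either direction. They included 6 of 7 beta-ring genes, 3 of 6 ATPases and Psmf1 (1.72), and Psmb10 moved toward the light side (-2.18).

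The level on the heavy side joins the amount of a transcript with its position. From GV to MII, limma called 1 member higher and 7 lower there, beside 4.06% of all genes in either direction. Of these, 5 of the 7 lower were beta-ring genes, with Psmb4 at 432, 469 and 498 CPM in GV and 46.3, 26.4 and 111 in MII gradients (-3.15, SE 0.52, adjusted p = 9.44e-04). Psmf1 fell by 2.4, Psmg3 by 2.21, and Psma7 rose by 2.14. Without gradient A or B 1 was called, and without C 5. Psma7 rose on the heavy side while its transcriptome change was -0.35, not called. From MII to zygote 3 were called (1.49% of all genes), with Psmf1 higher (1.84) and Psmb3 lower (-1.79). The count was 0 without gradient B and 1 without C.

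From zygote to 2-cell embryo 13 members fell on the heavy side and 3 rose, beside 20.8% of all genes, whose own median was -0.51. The largest falls were Psmd10 (-5.12), Psmg3 (-4.71), Psma1 (-4.66), Psmc4 (-3.98) and Psmd1 (-3.85), and Psmb10 (2.68) and Psmb6 (1.9) were among the rises. The count was 9 without gradient A, 10 without B and 8 with the spread of the 2 stages alone. Psmb10 stood at 1.38 without A and Psmd1 at -2.13 without B, both uncalled. From 2-cell to 4-cell, 19 rose and 7 fell (37.8% of all genes), with 8 of 17 core genes up and 0 down. Psmb5 rose by 4.46, Psmg3 by 6.26, Psmc4 by 5.46 and Psma6 by 4.87. Psme4 fell by 4.09, Psmd9 by 3.25 and Psmf1 by 1.68. With the spread of these stages alone 3 were called. Psme4 stood at -2.31 without gradient C and Psmf1 at -1.30 without B, both uncalled.

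On the heavy side the later steps were rises. From 4-cell to 8-cell 4 rose (6.54% of all genes), led by Psmc2 (3.88), Psmg2 (3.18) and Psma1 (3.01). The count was 1 without gradient B and 0 with the spread of those stages alone. Psma1 stood at 1.95 without A and Psmg2 at 2.16 without B, both uncalled. From 8-cell to morula 6 rose (7.98%), with Psmb9 (3.73), Psmc2 (2.56), Psmd12 (2.48) and Psmb3 (1.84) leading their groups. With the spread of those stages alone 14 rose, but the share of all genes by that fit is not given here. Psmc2 (2.26) and Psmd12 (2.01) were not called without gradient C. EdgeR called neither Psmc2 (adjusted p = 0.170) nor Psmd12 (0.0854), and it did not call Psmb9 (0.423). From morula to blastocyst 0 were called (0.0757%; 2 members with an unadjusted p under 0.05, edgeR 0). From GV to blastocyst 28 members rose and 2 fell on the heavy side, beside 46.1% of all genes, with a median of 1.84 for members and -0.44 for all genes. All 7 beta-ring and 5 of 7 alpha-ring genes rose. Psmb5 went from 100.4, 69.2 and 110.4 to 869, 941 and 809 CPM (3.24, SE 0.44, adjusted p = 4.91e-06). Psmd13 rose by 5.37 (SE 1.49). It was not called by limma with a pseudocount of 0.1 (adjusted p = 0.0536) or by edgeR (adjusted p = 0.106). Psmg2 rose by 6.51 and Psme1 by 5.5, from heavy GV values of at most 2.28 and 0.504 CPM. Psmb9 was at 0 on the heavy side of all 3 GV gradients and read 24.7, 20.6 and 23.3 in the blastocyst. Psmf1 fell by 2.2, and Psmb11 by 3.22, which was not called without gradient B or C.

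The wider ubiquitin and proteasome pathway was followed with a list. Of 28 listed (ubiquitin genes, shuttle factors, the Vcp segregase with its cofactors, cap-bound enzymes and proteasome transcription factors), 27 were tested. From GV to MII 2 rose and 7 fell in the transcriptomes (7.41% and 25.9%, beside 9.11% and 25.3% of all genes), and from zygote to 2-cell 6 rose and 2 fell (22.2% and 7.41%, beside 25.2% and 8.71%), shares near those of all genes. From 2-cell to 4-cell 14 rose and 6 fell (51.9% and 22.2%, beside 31.8% and 32.9%). From 2-cell to 4-cell the segregase Vcp rose by 5.33, the ubiquitin fusion gene Rps27a by 4.8, the cap subunit Sem1 by 3.81, the ubiquitin receptor Adrm1 by 3.53 and the core assembly factor Pomp by 3.46. Ngly1, the deglycosylase that processes Nfe2l1, fell by 4.88, Nfe2l2 by 2.24 and the polyubiquitin gene Ubb by 2.17. From GV to MII Rps27a fell by 6.35 and Adrm1 by 2.35. From GV to blastocyst 16 rose and 4 fell (59.3% and 14.8%, beside 38.2% and 30.9%).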

How the data were processed

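The authors deposited 1 table of CPM for 15854 symbols in 272 libraries. Per the submitters' processing notes, the tools were Trim Galore 0.6.7, FastQC, HISAT2 2.2.1, featureCounts 2.0.1 and edgeR, with build GRCm39. In 9 columns repeated symbols pushed the sum past what CPM allows. These were recorded as signal, which the authors deposited on the same scale, and used as CPM. Of symbols identical in every library (159, none a member), 1 per group was kept, which left 15771. Values were whole reads (tolerance 0.05) in 271 libraries. Fraction 7 of 2-cell gradient B was left out of read-based fits. The 2-cell transcriptome columns are lettered E to H and are named so.

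Limma 3.58.1 in R 4.3.3 was fitted with a trend to log2(CPM + 1) of genes reaching 1 CPM in no fewer samples than the smallest group has, with Benjamini-Hochberg adjustment. A call needs an adjusted p under 0.05 and a log2 change of at least 1. Fits covered 32 transcriptomes (n = 4 a stage) and 24 gradients (n = 3), with fractions 6 to 10 averaged as heavy and 1 to 5 as light. Fraction libraries as shallow as 0.0105 M reads entered these averages. The code was tested on simulated data. Same-lettered samples of different stages were not paired (correlations of deviations from -0.178 to 0.195), whereas both sides of 1 gradient come from 1 lysate (0.00776 to 0.253).

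Members, gene lists and tests were chosen with earlier results of these data known. Values are given for the called members with the largest rise and fall in each group, for the tissue-specific, activator, inhibitor and chaperone genes at every stage, and for extremes of the core and cap groups. Alternatives were edgeR 4.0.16 on recovered reads, quantile normalization, no filter, a pseudocount of 0.1, the spread of the compared stages alone, other definitions of the sides, a replicate block and leaving out each replicate. The light side without fraction 1 was added after seeing the data.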

Additional observations from a re-analysis of the deposited data

Results flagged for a closer look

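Within groups of 4 pools, a pool was singled out when its gap to the nearest other pool took more of the group's range than Dixon's 95% critical value. Of 123 such groups 8 met this, and chance flags about 1 in 20. The cap sum had a high MII pool (1644 CPM, share of the range 0.837) and a low blastocyst pool (5511 CPM, 0.905). Psme1 had a low 8-cell pool (40.6 CPM, 0.871) and Psme2 a high zygote pool (2.5 CPM, 0.9). Psme4 had a low MII pool (242 CPM, 0.877) and Psmf1 a low 2-cell pool (256 CPM, 0.859). Psmg3 had a high 8-cell pool (68.7 CPM, 0.944) and Psmd9 a high blastocyst pool (75.8 CPM, 0.935).

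The heavy minus light difference of 13 member and step combinations differed between stages by limma's test of the difference itself, with the spread shared over stages. From zygote to 2-cell these were Psmb6 (1.57) and Psmb5 (2.31). From 2-cell to 4-cell they were Psmc4 (7.98), Psmf1 (5.87), Psma1 (3.22), Psmb3 (1.47), Psmc2 (-4.19) and Psme3ip1 (-3.1). From 4-cell to 8-cell they were Psmc4 (-3.78) and Psmf1 (-3.32), and from GV to blastocyst Psmd4 (2.16), Psmb6 (1.71) and Psmd8 (2.18). All 3 of the GV to blastocyst changes were also called with the spread of those stages alone, and none of the others was.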

How the results depend on the processing

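No named result changed direction under any alternative run. In the transcriptomes most counts of called members moved by less than 1.5 times. The exceptions were 1 from 8-cell to morula with edgeR, and, leaving out replicates in turn, 0 to 1 from 4-cell to 8-cell and 5 to 10 from morula to blastocyst. The other transcriptome counts under leave-one-out ran 30 to 31, 7 to 10, 20 to 21, 41 to 43, 2 to 4 and 26 to 28 for GV to MII, MII to zygote, zygote to 2-cell, 2-cell to 4-cell, 8-cell to morula and GV to blastocyst. Quantile normalization changed the split from zygote to 2-cell to 9 higher and 11 lower and from morula to blastocyst to 4 and 3. Quantile normalization also moved the median of all genes from -0.11 to 0.16 for GV to MII and, in the heavy fractions, from -0.51 to -0.01 for zygote to 2-cell and from -0.44 to 0.00 for GV to blastocyst.

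The gradient counts depended more on the choices. They are counts of members alone, and calls over all genes moved too. For position change from GV to blastocyst, 1.05% of all genes were called with the shared spread. With the spread of those stages alone it was 14.2%. For most alternatives the share of all genes is not given here, so these counts show the dependence and no trait of the members. The spread of the compared stages alone gave, for heavy levels, 18 (GV to MII), 1 (MII to zygote), 8 (zygote to 2-cell), 3 (2-cell to 4-cell), 0 (4-cell to 8-cell) and 14 (8-cell to morula). For heavy against light it gave 4 in MII, 7 in zygotes, 0 in 2-cell, 0 in 4-cell, 0 in 8-cell, 22 in morula and 26 in blastocyst gradients, and for position change 1 (GV to MII), 0 (zygote to 2-cell), 0 (2-cell to 4-cell), 0 (4-cell to 8-cell) and 20 (GV to blastocyst). EdgeR gave heavy levels of 1 (MII to zygote), 1 (4-cell to 8-cell) and 2 (8-cell to morula), heavy against light counts of 1 in MII, 1 in zygotes, 4 in 8-cell, 2 in morula and 0 in blastocyst gradients, and position changes of 4 (zygote to 2-cell), 1 (4-cell to 8-cell) and 1 (GV to blastocyst). Averaging log2 values over a side gave heavy levels of 16 (GV to MII), 33 (zygote to 2-cell), 23 (4-cell to 8-cell), 20 (8-cell to morula) and 2 (morula to blastocyst), heavy against light counts of 11 in morula and 2 in blastocyst gradients, and position changes of 1 (4-cell to 8-cell) and 0 (GV to blastocyst). Fractions 8 to 10 against 1 to 3 gave 5 for heavy levels from GV to MII, heavy against light counts of 1 in zygotes, 17 in 4-cell, 15 in morula and 9 in blastocyst gradients, and position changes of 11 (2-cell to 4-cell), 1 (4-cell to 8-cell) and 6 (GV to blastocyst). The light side without fraction 1 gave 1 in blastocyst gradients and 1 position change from zygote to 2-cell. A pseudocount of 0.1 gave 1 in MII, 5 in 8-cell gradients and 1 position change from 4-cell to 8-cell. Quantile normalization gave 2 in blastocyst gradients and 1 position change from GV to blastocyst. The replicate block, which pairs the 2 sides of a gradient, gave 8 in blastocyst gradients and 9 in morulae, and it moved no other count by over 1.5 times. It ended the calls of Psme4 in zygotes, Psmc1 in 8-cell gradients, Psmd13 on the heavy side from 2-cell to 4-cell, and the position changes of Psme3ip1 from 2-cell to 4-cell and Psmd8 from GV to blastocyst. The cause of these differences was not tested.

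Leaving out replicates in turn gave heavy levels of 1 to 5 (GV to MII), 0 to 2 (MII to zygote), 9 to 14 (zygote to 2-cell) and 1 to 5 (4-cell to 8-cell). Heavy against light counts were 0 to 2 in MII, 0 to 2 in zygotes, 5 to 7 in 2-cell, 0 to 4 in 8-cell, 2 to 4 in morula and 0 to 1 in blastocyst gradients. Position changes were 1 (zygote to 2-cell, each time), 0 to 4 (4-cell to 8-cell) and 0 (GV to blastocyst, each time). Of the named results, 8 of 66 in transcriptomes, 25 of 44 for heavy levels, 21 of 26 for heavy against light and 9 of 11 for position change lost their call without some replicate.

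Leaving out fraction 1 raises every mean fraction number by construction. It gave for core genes 5.63, 5.78, 5.56, 6.32, 7.19, 7.08, 7.24 and 7.07 from GV to blastocyst, for cap genes 5.57, 5.13, 5.64, 5.29, 6.37, 6.57, 7.42 and 7.24, and for regulators 5.47, 5.69, 5.34, 5.43, 6.79, 6.64, 6.49 and 6.36.

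Depth limits the light side most: all 14 fraction libraries under 1 M reads are of fraction 1. Changes from stages where a gene had 0 or few reads, such as Psmb9 and Psme1 before the 2-cell stage, depend on the pseudocount. No block fit was made for 2-cell transcriptomes, whose columns carry other letters.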

Other observations

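The 5 genes with a matching symbol that encode no subunit had courses of their own. Psmc3ip, which acts in meiotic recombination, read 77.1, 65.5, 65.4 and 63.9 CPM in GV and 2.45, 2.12, 0.938 and 1.11 in MII pools and fell by 4.74 (SE 0.20). At the 2-cell stage it had risen by 2.87, and at the 4-cell stage by a further 1.37 in the transcriptome and 3.68 on the heavy side. That heavy rise was 0.10 (adjusted p = 1) with fractions 8 to 10 as the heavy side and 1.61 with log2 values averaged, and its call was lost without gradient A (2.88). Psme3ip1 stood at 220.4 ± 3.13 CPM in GV and 82.2 ± 9.71 in blastocyst pools (a fall by 1.42), and fell by 3.32 on the heavy side from 2-cell to 4-cell (-1.74 without gradient A, uncalled). The pseudogene symbol Psma5-ps rose by 1.84 from 2-cell to 4-cell, the step at which Psma5 rose by 2.21, was heavier in morula gradients (2.33, where Psma5 differed by 2.2) and rose by 2.92 on the heavy side from GV to blastocyst. Reads of the pair may be shared. Psmb6-ps2 stood under 5 CPM on average at every stage and rose by 1.37 from GV to blastocyst.

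Other called members of the heavy fractions, the largest of their groups, were Psme2 (2.73), Psmb10 (3.39), Psmd13 (3.82), Psmc2 (-2.55) and Psmd11 (-2.26) from 2-cell to 4-cell, and Psma5 (3.03) and Psmc3 (2.41) from GV to blastocyst. Those from 2-cell to 4-cell were unsteady. Without gradient A, Psmd11 was -0.42, Psmd13 1.57 and Psmc2 -1.78, without B Psmb10 was 2.31, with fractions 8 to 10 Psme2 was 0.10, and with quantile normalization Psmc2 was -0.80, each uncalled. Psma5 lost its call without gradient B or C and Psmc3 without B. In 2-cell gradients Psmf1 was lighter (-1.65) and in 4-cell gradients heavier (4.22). Psmc4 did likewise (-3.07 and 4.91), while Psmc2 was lighter in 4-cell gradients (-3.39). In 2-cell gradients the calls of Psmf1 and Psmc4 were lost without gradient A or B. Psmd4 was heavier in blastocyst gradients (1.4), but was not called when any 1 of the 3 gradients was left out. In the transcriptomes Psmb10 rose by 1.67 and Psme1 by 2.7 from 2-cell to 4-cell, Psmd5 rose by 1.39 from zygote to 2-cell, and Psme2 and Psmb11 fell by 2.91 and 2.1 from GV to MII. GV gradients held no called member, and their extremes in the rings and the cap were Psmd12 (1.71) and Psmd3 (-1.25).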
